A study of Mus musculus with 16 samples.

Results

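The Hoxa cluster is a row of homeobox genes on mouse chromosome 6, described here by the trimethylation of histone H3 over it in blood stem cells of old and young mice. Its 10 genes were Hoxa2, Hoxa3, Hoxa4, Hoxa5, Hoxa6, Hoxa7, Hoxa9, Hoxa10, Hoxa11 and Hoxa13, and its members in the data were all peaks and islands that touch a window of 110 kb on chromosome 6, starting at base 52110001 (mm9) and chosen by position alone. Of 610361 peaks and islands in the 16 deposited lists, 105 touched the window. They comprised 45 of 71170 H3K4me3 peaks, 11 of 215133 H3K27me3 islands and 49 of 324058 H3K36me3 peaks. A flank of 100 kb on each side was read in the same way.

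Hox genes encode homeodomain transcription factors, and their order along the chromosome follows the order in which they are used along the body axis. The anterior genes Hoxa2 and Hoxa3 pattern the hindbrain, neural crest and pharyngeal organs, the central genes from Hoxa4 to Hoxa7 pattern the trunk, and the posterior genes from Hoxa9 to Hoxa13 pattern limbs and urogenital tract. In blood, Hoxa9 is known as a factor that sustains stem cell renewal and drives leukaemia when overexpressed, and Hoxa10 acts beside it. H3K4me3 marks promoters that are active or poised, H3K27me3 is laid down by the Polycomb complex over silent genes, and H3K36me3 follows transcription through gene bodies.

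The stem cells came from bone marrow of wild-type C57BL/6 mice and carried the surface phenotype SP-KSL-CD150+. The old group was 24 months of age and the young group 4 months, and chromatin immunoprecipitation with sequencing was done at both ages. H3K4me3 (antibody Millipore 07-473) was mapped in 2 old libraries, replicates 7 and 8, and 2 young libraries with the same numbers. H3K27me3 (Millipore 07-449) had 3 old and 3 young libraries, replicates 1 to 3, and H3K36me3 (Abcam ab9050) had 3 old and 3 young libraries, replicates 4 to 6. Sex and the number of animals behind a library are not given in the labels. Each library is labelled as a technical replicate of 1 numbered biological replicate, so the spread that p-values rest on here may be technical. Titles also carry an unexplained number between 16 and 21, which was used as a possible batch.

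The lists give positions and a score and no read counts, so sequencing depth is unknown and the measure used is the length of DNA under peaks, called cover. List sizes ranged from 16258 to 19923 peaks for H3K4me3, from 17752 to 47197 islands for H3K27me3 and from 6399 to 84437 peaks for H3K36me3. A pair of young libraries stood apart from the rest, both with the title number 16. Old H3K36me3 replicate 4 also has title number 16 and did not stand apart, with 68.5 Mb under peaks. Young H3K27me3 replicate 1 shared a Jaccard index (shared length over joint length) of only 0.0179 to 0.0265 with the other 5 H3K27me3 lists across the genome, against 0.284 to 0.381 among those 5. Its total length was not unusual, at 168.9 Mb against 123.0 to 178.9 Mb in those 5. Young H3K36me3 replicate 4 held 6399 peaks over 5.90 Mb, against 41.5 to 138 Mb in the other 5 lists. Results that rest on either are given with and without it.

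The gene order could be placed along the window only by its ends. In the RefSeq gene table the order with rising coordinate runs through Hoxa2, Hoxa3, Hoxa4, Hoxa5, Hoxa6, Hoxa7, Hoxa9, Mir196b, Hoxa10, Hoxa11, Hoxa13, Evx1 and Hibadh. The low end of the window is thus its Hoxa2 end and the high end its Hoxa13 end. No annotation of mm9 was used here, so no peak is assigned to a single gene.

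Promoters of 4 members are shown because they span the cluster from its anterior end to its posterior end and differ in CG dinucleotides, the bases around which H3K4me3 and H3K27me3 are both known to gather. Each is the 250 bases before the gene's start from RefSeq (GRCm38.p6, another build than that of the peaks), with every CG in capitals.
Hoxa2, chr6:52164832-52165081, minus strand: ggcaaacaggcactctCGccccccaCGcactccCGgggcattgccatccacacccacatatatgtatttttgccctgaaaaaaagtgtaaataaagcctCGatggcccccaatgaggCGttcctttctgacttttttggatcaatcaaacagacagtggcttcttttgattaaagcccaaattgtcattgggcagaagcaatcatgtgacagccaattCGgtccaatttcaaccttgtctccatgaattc
Hoxa5, chr6:52204588-52204837, minus strand: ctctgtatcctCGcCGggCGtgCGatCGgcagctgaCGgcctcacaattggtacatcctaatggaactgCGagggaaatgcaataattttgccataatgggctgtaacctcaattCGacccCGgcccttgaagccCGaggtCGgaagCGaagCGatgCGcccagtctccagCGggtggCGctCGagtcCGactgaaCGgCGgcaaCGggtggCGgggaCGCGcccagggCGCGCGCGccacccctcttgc
Hoxa9, chr6:52227371-52227620, minus strand: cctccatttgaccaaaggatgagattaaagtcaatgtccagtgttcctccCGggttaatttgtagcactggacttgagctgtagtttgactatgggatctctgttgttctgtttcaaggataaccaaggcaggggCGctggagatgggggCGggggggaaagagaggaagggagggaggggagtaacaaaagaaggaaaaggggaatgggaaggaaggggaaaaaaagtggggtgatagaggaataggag
Hoxa13, chr6:52260881-52261130, minus strand: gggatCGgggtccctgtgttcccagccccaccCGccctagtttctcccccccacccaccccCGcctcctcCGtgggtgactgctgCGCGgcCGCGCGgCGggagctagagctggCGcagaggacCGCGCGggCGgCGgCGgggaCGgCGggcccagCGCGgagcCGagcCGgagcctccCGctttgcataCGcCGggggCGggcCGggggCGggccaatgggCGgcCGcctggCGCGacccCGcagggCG
RefSeq sequence was matched for 9 of the 10 members, with 10 promoters. Their CG counts ran between 3 and 35 with a median of 15.5, against a median of 6 over 32851 promoters of the same length. Hoxa13, the gene for digit and hindgut formation, held 35 CG dinucleotides at 80% G and C, and 2.97% of all promoters hold as many. Hoxa5, which is needed for lung development, held 28, Hoxa6 24, Hoxa10 20 in one promoter and 7 in the other, Hoxa3 18 and Hoxa11 13. Hoxa9 held 3, Hoxa2 6 and Hoxa7 7, so the promoter of the blood gene Hoxa9 held the fewest CG of the 10. This holds for the matched RefSeq starts only, and the count can differ between starts of 1 gene, as for Hoxa10. The motif TGATNNAT, letters that PBX-HOX protein pairs are known to bind, was searched on both strands. It stood in 1 of the 10 promoters (10%), that of Hoxa2, and in 7.68% of all promoters.

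The cluster was divided between the marks at both ages. H3K4me3 filled the middle of the window, H3K27me3 filled its Hoxa13 end and a short stretch at its Hoxa2 end, and H3K36me3 lay on the side nearer Hoxa2. Among base pairs marked in at least 3 libraries (without young H3K27me3 replicate 1 and young H3K36me3 replicate 4), H3K4me3 alone held 36.2% of the first 75 kb, H3K36me3 alone 17.8%, H3K27me3 alone 4.25%, and 38.2% carried no mark. Between 75 and 110 kb, H3K27me3 alone held 96.3% and H3K4me3 alone 0.954%. H3K4me3 together with H3K27me3 was found on 1.62% of the first stretch and 1.96% of the second, and H3K27me3 with H3K36me3 on 0% of either. The division at 75 kb was chosen after the values were seen. Marks on the same bases may lie on different cells or alleles, which these lists cannot tell apart.

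**Figure D1:**
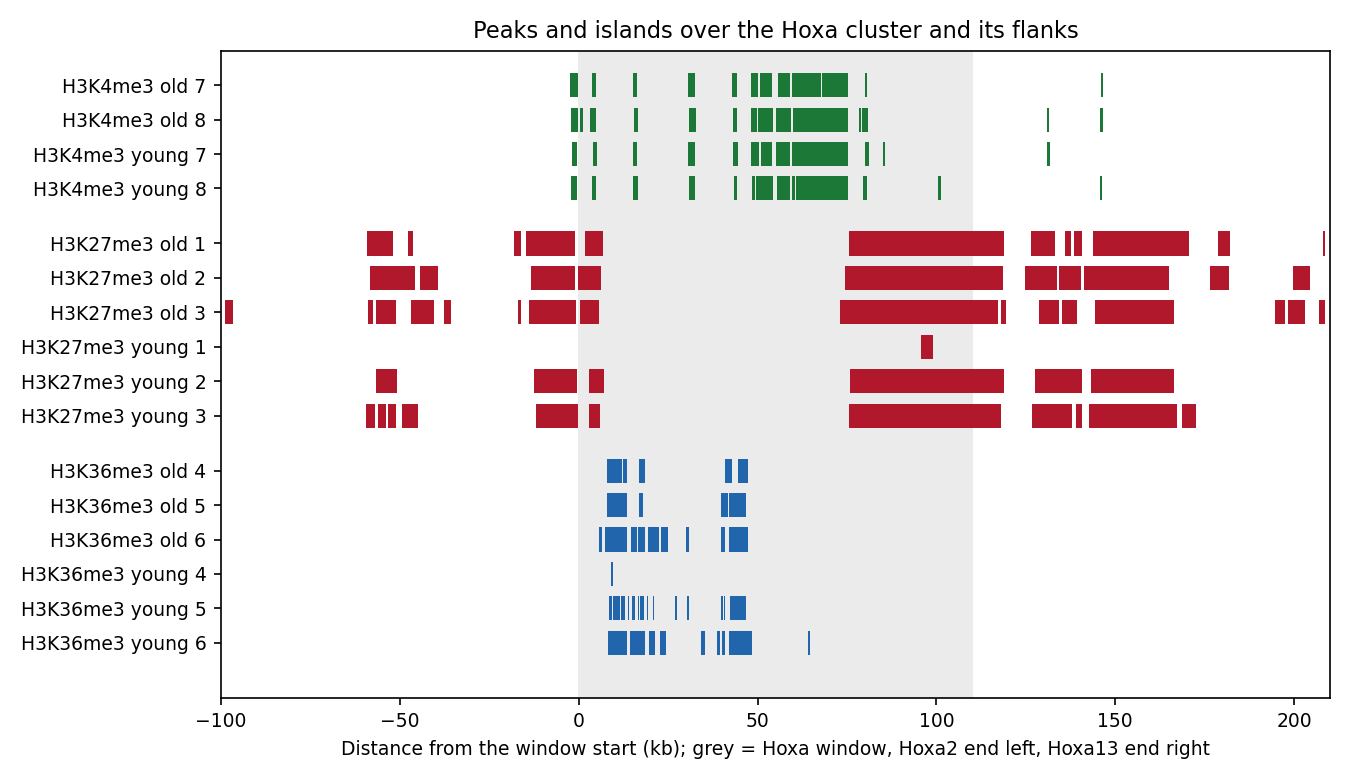
Every peak and island over the Hoxa window (grey) and its flanks, 1 row per library, against the distance from the window start in kb. The longest H3K4me3 region (green) ends near 75 kb in all 4 libraries, with smaller peaks beyond it, the long H3K27me3 island (red) starts near there in 5 of 6, and H3K36me3 (blue) stays within the grey window.

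H3K4me3 covered about the same length of the cluster in old and young cells. It lay over 27.5% and 31.1% of the window in old libraries 7 and 8, and over 29.9% and 28.9% in young libraries 7 and 8. The young values lie between the old ones, so the groups overlap. Cover averaged 29.3% ± 2.55 in old cells and 29.4% ± 0.642 in young cells (SD, n = 2 each), a difference of -0.08 percentage points (exact two-sided permutation test, p = 1). With 2 libraries against 2 that test cannot give a p under 0.3333.

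Joined across libraries, the H3K4me3 peaks formed 12 regions in the window, of which 8 were present in all 4 libraries. The other 4 were each called in 1 library and were between 534 and 1008 bp long. The largest of these were chr6:52110273-52111280 in old library 8 and chr6:52194969-52195665 in young library 7. The longest region, chr6:52169644-52185438, covered 15346 and 15513 bp in old libraries and 15738 and 15555 bp in young libraries. Both old values lie below both young ones. With the stricter score threshold the order of the means turned, to 15429.5 bp in old and 15203 bp in young cells. The region ended 75.4 kb into the window and was filled almost wholly at both ages. In old library 8 it was 1 peak of 15513 bp, the peak of rank 2 by length of 19923. In young library 7 it was 1 peak of 15738 bp, the longest of that list of 16314. In old library 7 the authors' caller split it into 8204 and 7142 bp, and in young library 8 into 887, 6541 and 8127 bp, with the longest pieces at ranks 11 and 12 of their lists. The longest peak of the window averaged 11858.5 ± 5168.2 bp in old cells and 11932.5 ± 5381.8 bp in young cells (SD, n = 2 each), a difference of -74 bp (exact two-sided permutation test, p = 1). The splitting of the block therefore varied among replicates of 1 age as much as between the ages.

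A pair of broad H3K4me3 regions adjoined the block on the Hoxa2 side. The region chr6:52165122-52169338 held 3284 and 4186 bp in old libraries, against 3841 and 3679 bp in young libraries. The region chr6:52158104-52164404 held 5473 and 5899 bp in old libraries, against 5615 and 5592 bp in young libraries. In both, the young values lie between the old values. Toward Hoxa2 the regions were narrow, as single promoters often are. The region chr6:52152962-52154656 held 1396 and 976 bp in old libraries and 1536 and 992 bp in young libraries, and chr6:52140510-52142665 held 2063 and 1912 bp in old libraries and 2069 and 1839 bp in young libraries. The region nearest Hoxa2, chr6:52113164-52115049, held 1214 and 1652 bp in old libraries and 1073 and 1243 bp in young libraries. These 3 narrow regions overlapped between the ages. On the Hoxa13 side of the block, inside the H3K27me3 island, chr6:52189268-52191097 held 529 and 1633 bp in old libraries and 1168 and 1083 bp in young libraries, again with overlap.

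Among the 8 shared H3K4me3 regions the ages were apart in the longest, given above, and in a narrow one. The share of merged regions so apart across the genome was not computed, so this is not read as particular to the window. The region chr6:52125247-52126514 held 970 and 922 bp in old libraries, against 1103 and 1221 bp in young libraries, so both old values lie below both young ones. Of the 8 bins of 10 kb tested in the window, those covered in at least 2 libraries, 1 had old H3K4me3 cover wholly below young, the bin at 10 to 20 kb that holds this region, and 0 had it wholly above. Over all 18953 bins tested across the genome, 14.4% were wholly below and 16.9% wholly above, so 1 of 8 is near the background. In limma on log2(length + 200 bp), the 8 bins had log2 differences (old over young) between -0.52 and 0.57 and adjusted p-values of at least 0.9996, and 0 were called. Across the genome 0% of bins were called at an adjusted p under 0.05, while 1239 had an unadjusted p under 0.05. The bin at 10 to 20 kb differed by -0.25 ± 0.18 (SE) on that scale.

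**Figure D2:**
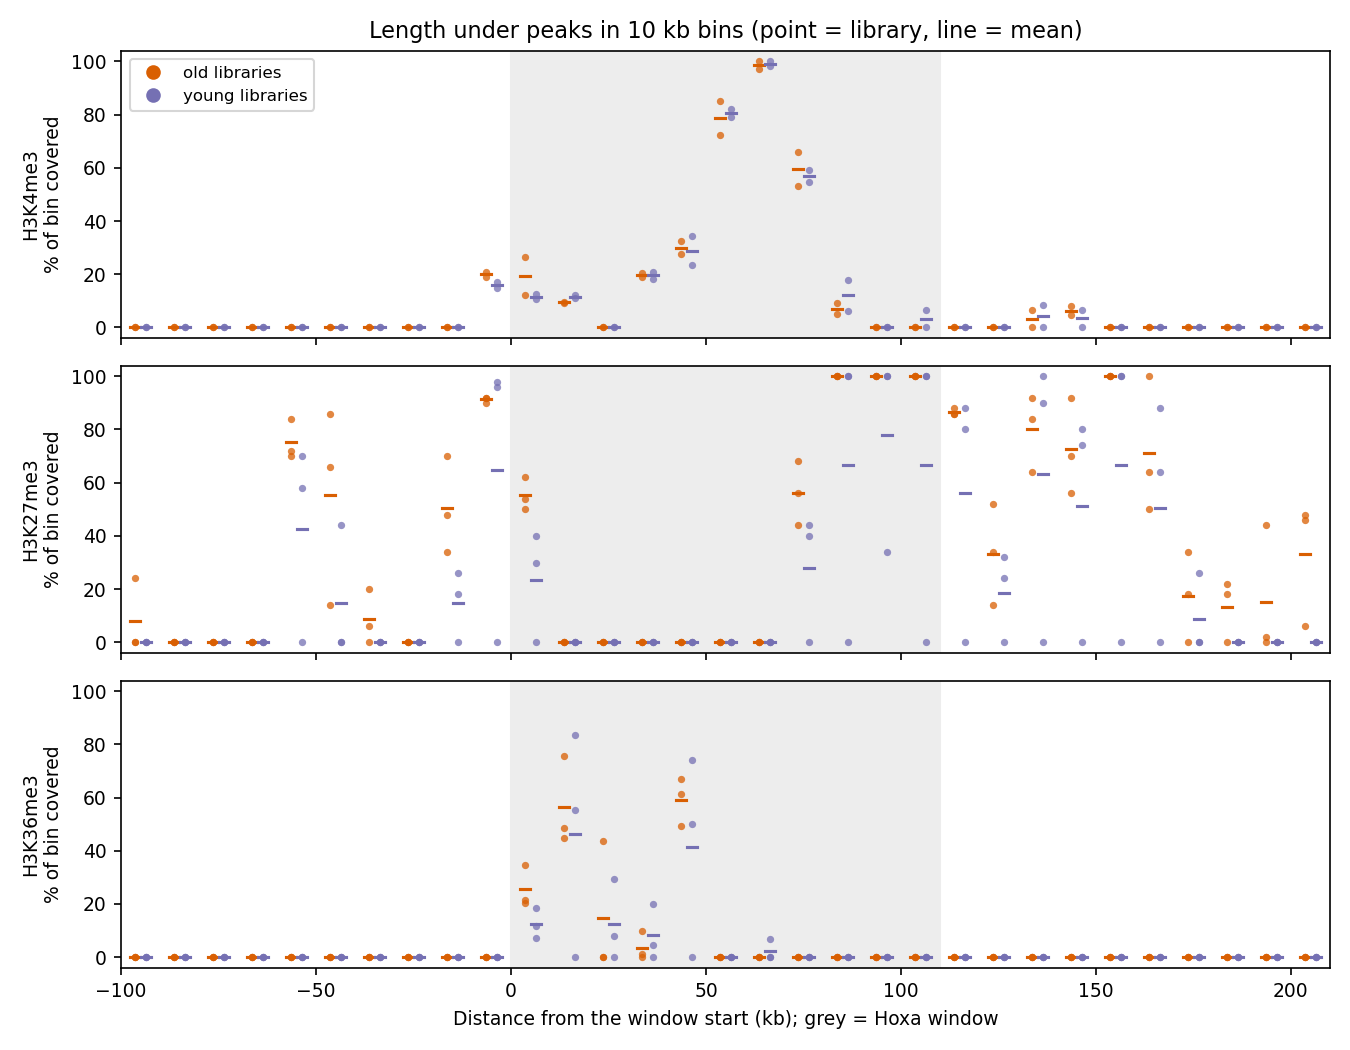
Cover of each 10 kb bin, in percent of the bin, along the Hoxa window (grey) and flanks, with 1 panel per mark, points for libraries (old left, young right) and lines for means. H3K4me3 rises to 98.5% (old) and 99.1% (young) in the bin at 60 to 70 kb, and H3K27me3 is at 100% between 80 and 110 kb in all 3 old libraries and in young libraries 2 and 3.

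H3K27me3 covered the Hoxa13 end as 1 island that ran past the window. Old libraries 1, 2 and 3 had islands of 43200, 44200 and 44000 bp, and young libraries 2 and 3 had islands of 42800 and 42400 bp. Young library 1 had a single island of 3400 bp, chr6:52205801-52209200, in the same stretch. By length the old islands ranked 36, 157 and 49 in their lists, and the young islands of libraries 2 and 3 ranked 61 and 45. By the authors' score they ranked 20, 40 and 22 in old lists and 19 and 24 in young lists, among 17752 to 47197 islands. The posterior end of the gene order, where Hoxa13 lies, was thus under an island that ranked 157 or better by length in 5 of 6 libraries.

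Over the whole window H3K27me3 covered 35.8%, 38.0% and 38.4% in old libraries, against 3.09%, 34.5% and 34.0% in young libraries 1, 2 and 3. Every old value lies above every young value, and young library 1 lies far below all others. Cover averaged 37.4% ± 1.38 in old cells and 23.9% ± 18 in young cells (SD, n = 3 each), a difference of 13.5 percentage points (exact two-sided permutation test, p = 0.1, the smallest that 3 against 3 can give). Without young library 1 the young mean was 34.3% ± 0.386 (SD, n = 2) and the difference 3.12 percentage points (exact two-sided permutation test, p = 0.2, where 0.1 is the smallest possible). Within title number 18 the old library exceeded the young one by 3.45 percentage points, and within title number 20 by 4.36. As every old value exceeds every young one, an old excess within each title number was fixed in advance. The size of the excess depended strongly on young library 1, at 13.5 percentage points with it and 3.12 without it.

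The difference without young library 1 lay at the edges of the islands. At the Hoxa2 end a second island was shorter in young cells: it ran over chr6:52111801-52116800, chr6:52109801-52116200 and chr6:52110401-52115800 in old libraries, against chr6:52113001-52117000 and chr6:52113001-52116000 in young libraries 2 and 3. All 3 old islands start at lower coordinates than both young ones. In the bin at 0 to 10 kb this gave 5000, 6200 and 5400 bp in old libraries, against 0, 4000 and 3000 bp in young libraries. That bin was the 1 of 5 tested with old cover wholly above young, with or without young library 1, and 0 were wholly below. The adjoining flank bin, at -10 to 0 kb, held 9000, 9200 and 9200 bp in old libraries, against 0, 9600 and 9800 bp in young libraries. Without young library 1 old cover was thus wholly below young there. In the next flank bin, at -20 to -10 kb, old cover was wholly above young, with 7000, 3400 and 4800 bp against 0, 2600 and 1800 bp. Across the genome 7.40% of 56946 bins were wholly above and 0.862% wholly below. Without young library 1 the genome-wide shares were 9.23% above and 9.62% below, and 1 bin of 5 is too few to set the window apart from these shares.

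In limma the 5 tested H3K27me3 bins of the window had log2 differences (old over young) between 0.50 and 2.04. The bin at 0 to 10 kb had the highest, 2.04 ± 1.67 (SE), with a limma adjusted p of 0.6902. Limma called 0 of the 5 and 0% of the 56946 bins tested across the genome at an adjusted p under 0.05, while 1932 bins had an unadjusted p under 0.05. The median over all bins tested was 0.58, so that 1 of the 5 bins lies below it and 4 above it. With every library centred on its own median the 5 bins lay between -0.61 and 0.93, against a median of -0.52 over all bins. Centring shifts all bins alike, so again 1 of the 5 lies below the median and 4 above it. Without young library 1 the 5 bins lay between 0 and 0.64 in limma, with a smallest adjusted p of 0.606.

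The border between the H3K4me3 block and the H3K27me3 island was sharp. The last long H3K4me3 peak ended at 52185299 and 52185334 in old libraries and at 52185381 and 52185438 in young libraries, all within 200 bp of each other. The H3K27me3 island started at 52185601, 52184401 and 52183201 in old libraries 1, 2 and 3, against 52186001 and 52185601 in young libraries 2 and 3. Relative to the median end of the block, the island reached in by -0.243, 0.957 and 2.157 kb in old libraries, where a negative value is a gap. The young values were -0.643 and -0.243 kb. In 2 of 3 old libraries the island thus entered the block, and in neither of the young libraries did it, although old library 1 equals young library 3.

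**Figure D3:**
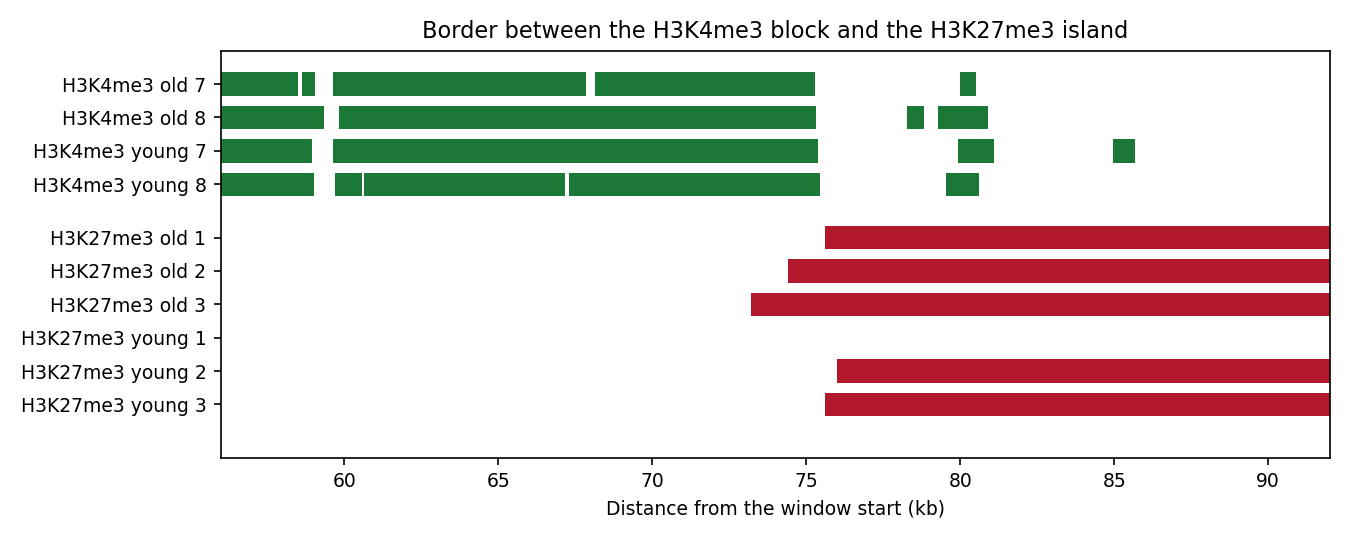
The border seen closer, with 1 row per library of H3K4me3 (green) and H3K27me3 (red) against the distance from the window start in kb. Islands of old libraries 2 and 3 start 0.957 and 2.157 kb inside the end of the H3K4me3 block, and those of old library 1 and young libraries 2 and 3 start after it.

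The bases under H3K4me3 in all 4 libraries came to 27472 bp, and the share of them under an H3K27me3 island was small. It was 4.93%, 8.20% and 12.6% in old libraries, against 0%, 4.93% and 4.93% in young libraries 1, 2 and 3. The lowest old value equals the highest young ones. The mean was 8.57% ± 3.83 in old cells and 3.29% ± 2.85 in young cells (SD, n = 3 each; exact two-sided permutation test, p = 0.3). Without young library 1 the young value was 4.93% in both libraries and the exact permutation p was 0.4.

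H3K36me3 lay in 3 main stretches on the side nearer Hoxa2. The region chr6:52117501-52123496 was present in all 6 libraries, with 5213, 5449 and 5879 bp in old libraries and 708, 3930 and 5337 bp in young libraries 4, 5 and 6. The region chr6:52124226-52128634 held 1663, 1185 and 3651 bp in old libraries, against 0, 2099 and 4396 bp in young libraries. The region chr6:52149770-52157584 held 4946, 6798 and 6362 bp in old libraries, against 0, 5124 and 6632 bp in young libraries. Young library 4 was lowest in each of the 3, and without it the ages overlapped in all 3. The other 10 regions were at most 3293 bp long. The largest of them by mean cover, chr6:52129086-52132378, held 0, 0 and 2900 bp in old libraries, against 0, 750 and 1847 bp in young libraries. The next, chr6:52132770-52134888, held 0, 0 and 1944 bp in old libraries, against 0, 0 and 1558 bp in young libraries, so old library 6 and young library 6 carried most of both. The region chr6:52139912-52140735 held 824 bp in old library 6 and 346 bp in young library 5. Of those called in 1 library, old library 6 held chr6:52115582-52116547, and young library 6 held chr6:52144210-52145341, chr6:52148773-52149625 and chr6:52157724-52158535. Past 52158535, a stretch that holds the longest H3K4me3 region and the H3K27me3 island, the only H3K36me3 peak was 1 of 666 bp in young library 6.

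Over the window H3K36me3 covered 10.7%, 12.2% and 20.5% in old libraries, against 0.644%, 11.8% and 21.1% in young libraries 4, 5 and 6. The groups overlap. Cover averaged 14.5% ± 5.25 in old cells and 11.2% ± 10.3 in young cells (SD, n = 3 each), a difference of 3.29 percentage points (exact two-sided permutation test, p = 0.8). Without young library 4 the young mean was 16.5% ± 6.60 (SD, n = 2) and the difference turned to -1.98 percentage points (exact two-sided permutation test, p = 0.6). Within title number 16 the old library exceeded young library 4 by 10.1 percentage points, and within title number 18 old library 6 exceeded young library 5 by 8.68.

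The bin at 0 to 10 kb, where the first H3K36me3 stretch begins, held 2026, 2141 and 3466 bp in old libraries, against 708, 1157 and 1841 bp in young libraries. It was the 1 bin of 5 tested that was wholly above young, with or without young library 4, and 0 were wholly below. Across the genome 3.49% of 35864 bins were wholly above and 0.0558% wholly below, and without young library 4 these shares were 3.56% and 3.63%. A single bin is too few to set the window apart from these shares. Of the 5 bins tested in the window limma called 0, with log2 differences (old over young) between -0.67 and 1.61 and a smallest adjusted p of 0.8652. Across the genome limma called 0% of bins, and 147 had an unadjusted p under 0.05. The median of all bins was 1.07 on that scale, so that 2 of the 5 bins lie above it and 3 below it. With each library centred the window's bins lay between -1.89 and 0.39, against a median of -0.14 over all bins. Without young library 4 they lay between -1.64 and 0.68.

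H3K36me3 kept largely clear of the other marks in the cluster. On the bases under H3K4me3 in all libraries it covered 0%, 3.08% and 5.64% in old libraries, against 0%, 3.36% and 8.79% in young libraries. The mean was 2.91% ± 2.82 in old cells and 4.05% ± 4.43 in young cells (SD, n = 3 each), a difference of -1.14 percentage points (exact two-sided permutation test, p = 0.7). Without young library 4 the young mean was 6.07% ± 3.84 (SD, n = 2) and the difference -3.17 percentage points (exact two-sided permutation test, p = 0.4). H3K27me3 and H3K36me3 shared 0 bp in every pair of libraries that did not hold old H3K36me3 library 6. That library had a peak of 966 bp, chr6:52115582-52116547, which reached under the H3K27me3 island at the Hoxa2 end. Its overlap with single H3K27me3 lists was 966 bp at most.

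**Figure D4:**
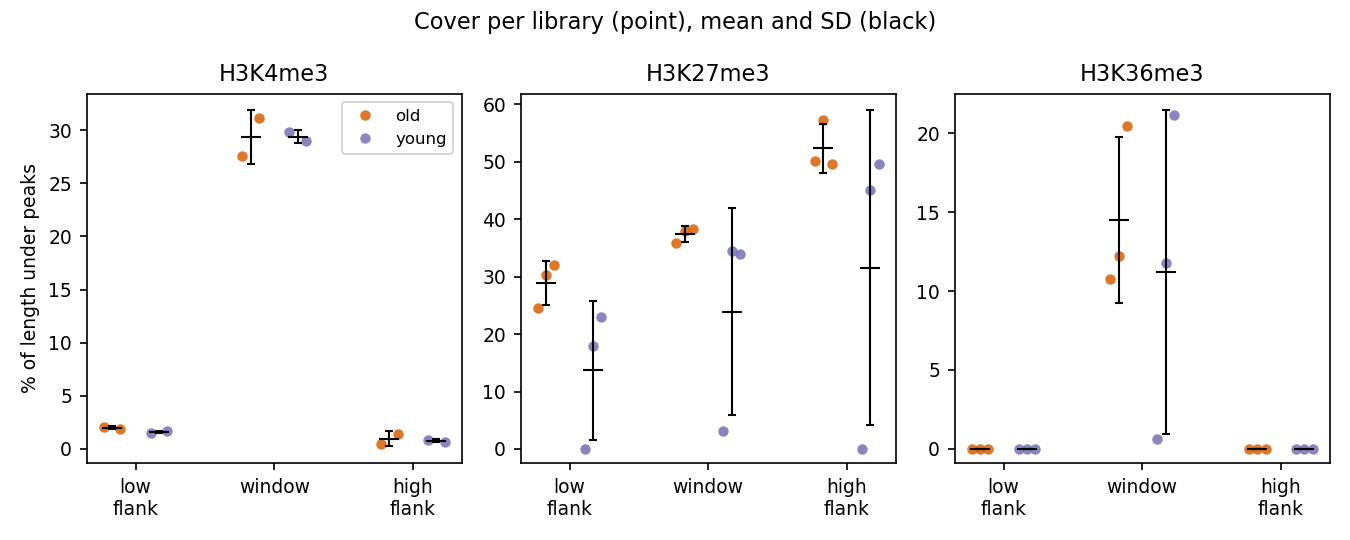
Cover in percent of the low flank, the Hoxa window and the high flank, with 1 panel per mark, points for libraries (old left, young right) and black bars for the mean and SD. H3K4me3 and H3K36me3 are concentrated in the window, whereas H3K27me3 is higher in the high flank (52.3% in old cells, 31.5% in young cells, or 47.3% without young library 1) than in the window.

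H3K36me3, and H3K4me3 on the Hoxa13 side, set the cluster apart from its flanks, whereas H3K27me3 was also found in both flanks. H3K36me3 covered 0% of both flanks in all 6 libraries. H3K4me3 covered 0.449% and 1.44% of the flank beyond Hoxa13 in old libraries, against 0.854% and 0.673% in young libraries. The region chr6:52240877-52241730 was called in old library 8 and young library 7, and chr6:52255772-52256654 in old libraries 7 and 8 and young library 8, so the ages overlapped in both.

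H3K27me3 extended well past the cluster on the Hoxa13 side, toward Evx1, a homeobox gene next in the order. It covered 50.2%, 57.2% and 49.6% of that flank in old libraries, against 0%, 45.0% and 49.6% in young libraries, and the groups touch. The means were 52.3% ± 4.22 in old cells and 31.5% ± 27.4 in young cells (SD, n = 3 each; exact two-sided permutation test, p = 0.2). Without young library 1 the young mean was 47.3% ± 3.25 (SD, n = 2; exact permutation p = 0.5). Its largest regions there were chr6:52251201-52282600, with 26800, 23800 and 22000 bp in old libraries and 0, 23200 and 28600 bp in young libraries, and chr6:52234801-52250800, with 10600, 14800 and 9800 bp in old libraries and 0, 13000 and 13000 bp in young libraries. A smaller one, chr6:52308201-52314600, held 0, 4800 and 5000 bp in old libraries and 0 bp in each young library. On the Hoxa2 side it covered 24.6%, 30.2% and 32.0% in old libraries, against 0%, 18% and 23% in young libraries, so all old values lie above all young ones. The means there were 28.9% ± 3.86 in old cells and 13.7% ± 12.1 in young cells (SD, n = 3 each; exact two-sided permutation test, p = 0.1), and without young library 1 the young mean was 20.5% ± 3.54 (exact permutation p = 0.2). The largest region wholly within that flank, chr6:52050401-52070600, held 8600, 17600 and 13600 bp in old libraries, against 0, 5800 and 11400 bp in young libraries, and overlapped between the ages. A long region, chr6:52095201-52117000, crossed from that flank into the window. It held 18800, 18800 and 18400 bp in old libraries, against 0, 16200 and 14600 bp in young libraries. The other regions wholly within the flank were at most 2400 bp long.

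Lists of different age were about as alike within the cluster as lists of 1 age, with overlapping ranges for each mark. For H3K4me3 the Jaccard index in the window was 0.817 to 0.872 between an old and a young library, against 0.814 to 0.846 between libraries of 1 age. For H3K27me3 it was 0.848 to 0.955 between ages and 0.889 to 0.964 within an age, both without young library 1, which reached 0.0806 to 0.0909 with the others. For H3K36me3 without young library 4 it was 0.438 to 0.659 between ages and 0.434 to 0.705 within an age. The H3K27me3 lists thus shared far more of the Hoxa window than of the genome, where the index was 0.284 to 0.381.

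Set among all 24033 stretches of 110 kb of the genome, the Hoxa window was near the top for H3K4me3. Its cover ranked 2 and 2 in old libraries and 2 and 1 in young libraries, while 95% of stretches had at most 4.80% to 5.69%. For H3K27me3 it ranked 760, 1066 and 760 in old libraries, against 8736, 896 and 1200 in young libraries. For H3K36me3 it ranked 2116, 2916 and 1481 in old libraries, against 3000, 787 and 2275 in young libraries. The cluster was thus extreme in H3K4me3 and merely high in the other marks. Averaged over the libraries of a mark without those that stood apart, the window had 29.4% H3K4me3, 36.1% H3K27me3 and 15.3% H3K36me3. At least as much H3K4me3 was found in 1 other stretch, chr11:96110001-96220000, with 32.0% H3K4me3, 40.9% H3K27me3 and 5.82% H3K36me3. No other stretch reached the window's means in all 3 marks. The grid of stretches was laid in phase with the window, so other domains may be cut by its borders and rank lower. These ranks are a description of the lists, with no test.

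**Figure D5:**
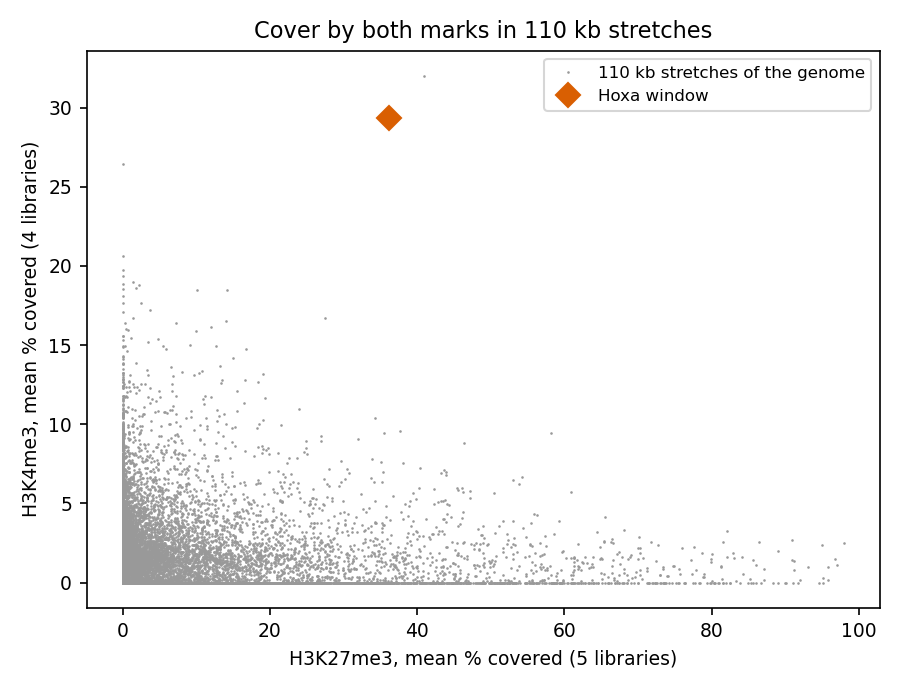
Mean H3K4me3 cover (4 libraries) against mean H3K27me3 cover (5 libraries) in percent for each of 24033 stretches of 110 kb (grey points), with the Hoxa window as the orange diamond at 29.4% and 36.1%. A single grey point, on chromosome 11, lies above it in H3K4me3, with 32.0% H3K4me3 and 40.9% H3K27me3.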

How the data were processed

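H3K4me3, H3K27me3 and H3K36me3 were mapped by ChIP-seq in 16 libraries. Per the submitters' processing notes, CASAVA 1.4, MACS, SICER and mm9 were used. The deposited file of each library is a list of peaks or islands with start, end and a score whose scale is not given in the sources used here. Caller thresholds, input controls and depth are not given either. File endings name MACS for H3K4me3 and H3K36me3 and SICER for H3K27me3. Because many H3K4me3 scores stand at or above 3100 (47.7% to 59.7% of a list), scores deposited by the authors were used for ranks and thresholds within a list only. SICER ends were read as inclusive, on a grid of 200 bp. A mark that is weak in a shallow library can fall below the caller's threshold, so cover reflects depth as well as the mark.

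Cover was computed per library in the window, in its flanks and in 10 kb bins of the genome (Python 3.11.15, numpy 2.4.6, pandas 2.3.3). Single values were compared by exact two-sided permutation tests of the age labels. Bins covered in at least 2 libraries were fitted with limma 3.58.1 (R 4.3.3; trend, empirical Bayes) on log2(length + 200 bp), p-values adjusted by Benjamini-Hochberg and called under 0.05. Merged regions join peaks of a mark that share a base or abut. The text names all merged regions of a mark where there are 10 or fewer, otherwise the 10 of largest mean cover, and the largest in each flank with smaller ones by their range. The members, lists and rules were chosen with earlier results of these data known. Alternatives were a stricter score threshold, equal list lengths, a wider window, other offsets, filters, bin sizes and scaling, blocks, and each library left out. Markers of the sorted cells could not be placed on mm9 and were not used here. The H3K4me3 result of the flank on the Hoxa2 side is not reported here.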

Additional observations from a re-analysis of the deposited data

How the results depend on the processing

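The difference in H3K27me3 cover of the window lay between 3.12 and 18.9 percentage points over the 11 alternatives. It was 13.0 to 18.9 when young library 1 was kept and another library left out. Every old value lies above every young one, so leaving out a library or pairing by title number could not reverse its direction. The stricter threshold and equal list lengths left it at 13.52, and the window widened by 10 kb gave 15.85. H3K27me3 on the shared H3K4me3 kept its direction in all 11 alternatives. No old value lies below a young one, so leaving out a library or pairing by title number could not reverse it either. Its difference stayed at 5.28 percentage points with the stricter threshold and with equal list lengths. It was 5.87 on H3K4me3 of at least 2 libraries. The H3K4me3 difference of -0.08 percentage points had no stable sign: it was 0.317 with the stricter score threshold, 0.240 with the window widened by 10 kb, and -1.88 to 1.72 with 1 library left out. The longest H3K4me3 peak differed by -3879.5 to 3731.5 bp with 1 library left out, and by -3877.5 bp with peaks under 200 bp apart joined. The H3K36me3 difference was -1.98 to 8.26 percentage points with 1 library left out, the lowest being without young library 4. Limma called 0 H3K4me3 bins, 291 with the stricter threshold (156 higher and 135 lower in old cells) and 0 to 5 with 1 library left out, the 5 being without young library 7. For H3K36me3 it called 0 bins, and 1408 (1404 higher, 4 lower) with the title number as a block, which leaves 2 old and 2 young libraries. Young library 4, which stood apart, is 1 of those 2 young libraries. Without young library 4, and with no block, limma called 0 H3K36me3 bins. In the window 0 bins were called in any of these fits. The cause was not tested.

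With the replicate number as a block, limma called 0 bins for each mark. Deviations of same-numbered libraries correlated at -0.0078 for H3K4me3, at 0.103, 0.174 and -0.0047 for H3K27me3 and at 0.126, -0.0429 and 0.0942 for H3K36me3. Old H3K27me3 libraries 1 and 2 and old H3K36me3 libraries 4 and 6 correlated best with their own number, and old libraries 3 and 5 did not. With 2 H3K4me3 libraries per age the deviations mirror each other, so their correlation cannot tell a pairing. Whether same-numbered libraries share more than a number is thus not settled by these values. The title number block could not be fitted for H3K4me3, where the ages share only number 18. Of 325 values of named regions and flanks under alternatives, 10 moved by over 1 SD. The SD was the larger group SD with all libraries kept, so for H3K27me3 it includes young library 1 and is wide. The old minus young difference of chr6:52251201-52282600 went from 6933.3 to -1700 bp without young library 1, within that SD. The count therefore does not show that the H3K27me3 regions are stable. Without read counts, a region missing from a list may be unmarked or below the caller's threshold at that depth.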
